A study of Mus musculus with 6 samples.

Results

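The genes described here make cholesterol and fatty acids, sense sterols, or carry cholesterol out of the cell. They are 36 genes chosen by symbol, from the thiolase that opens the pathway to the pumps that export its product. Each gene was represented by its brightest probe set (mean of the 6 arrays) among those that the platform annotation pairs with a single symbol. Of the 36 genes, 35 had such a probe set, out of 18193 genes on the whole array, and all 35 lay above the filter on low signal. Acat2, the cytosolic acetoacetyl-CoA thiolase of the first step, had none and was not analysed here. The 35 genes had 80 probe sets with a single symbol between them.

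The RNA came from C57BL/6J mouse bone marrow cells of the c-Kit+Sca-1+Lin- gate (KSL cells), which holds blood stem cells and early progenitors. Both groups were cultured for 7 days over a layer of endothelium from the human umbilical vein, with mouse cytokines of 5 types and without serum. RNA was taken after a second sort through the KSL gate. In 3 cultures mD1R was present and in 3 cultures PBS, the vehicle, so the comparison is between cells sorted through this gate after culture. The labels do not spell out mD1R. By what is known of the study it is an engineered, soluble form of the receptor-binding part of Delta-like 1, a ligand of Notch receptors, fused to a peptide that anchors it to endothelium. Neither the age nor the sex of the mice is given in the labels, and both groups shared the endothelial layer and the cytokines.

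Cholesterol is built from acetyl-CoA through mevalonate, isoprenoids and squalene. The genes of this route are switched on by the SREBP transcription factors, which the escort protein Scap carries out of the endoplasmic reticulum when sterols run low and which the Insig proteins hold back when sterols are plentiful. Oxysterols, in turn, activate the LXR receptors, which raise the efflux pumps Abca1 and Abcg1 as well as Srebf1 and several fatty acid genes. In blood stem and progenitor cells of the mouse, loss of both pumps is known to enlarge the progenitor pool.

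The promoters of 4 members are shown with the letters searched for as possible binding motifs of SREBP and its usual partners. RefSeq windows (GRCm38.p6, 250 bases before to 50 after an annotated start) were found for 28 of the 36 members, 37 windows in all. Both strands were searched for TCACNCCAC, a form of the sterol regulatory element, for CCAAT, which NF-Y binds, and for CACGTG, an E-box, and these are the letters in capitals below (a CCAAT on the opposite strand reads as its reverse complement). The Hmgcs1 window is shown because it alone among the member windows held TCACNCCAC, the Lss window for a gene that rose with 1 CCAAT, the Fads2 window for a gene that rose with none of these 3 motifs, and the Abca1 window for a pump that rose with an E-box. The windows lie at chr13:119690101-119690400 on the plus strand (Hmgcs1), chr10:76531355-76531654 on the plus strand (Lss), chr19:10101454-10101753 on the minus strand (Fads2) and chr4:53159846-53160145 on the minus strand (Abca1).
Hmgcs1: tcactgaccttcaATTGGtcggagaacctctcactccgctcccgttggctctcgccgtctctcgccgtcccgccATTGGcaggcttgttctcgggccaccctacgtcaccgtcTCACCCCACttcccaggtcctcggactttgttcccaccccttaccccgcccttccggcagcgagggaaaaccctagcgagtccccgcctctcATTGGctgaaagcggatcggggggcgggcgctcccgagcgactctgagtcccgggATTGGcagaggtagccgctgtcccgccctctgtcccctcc
Lss: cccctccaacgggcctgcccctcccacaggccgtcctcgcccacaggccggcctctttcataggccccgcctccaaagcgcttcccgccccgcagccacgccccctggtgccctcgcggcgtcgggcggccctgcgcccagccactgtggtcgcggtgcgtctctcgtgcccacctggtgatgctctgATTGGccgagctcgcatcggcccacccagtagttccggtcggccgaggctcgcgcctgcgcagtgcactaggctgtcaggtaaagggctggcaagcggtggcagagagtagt
Fads2: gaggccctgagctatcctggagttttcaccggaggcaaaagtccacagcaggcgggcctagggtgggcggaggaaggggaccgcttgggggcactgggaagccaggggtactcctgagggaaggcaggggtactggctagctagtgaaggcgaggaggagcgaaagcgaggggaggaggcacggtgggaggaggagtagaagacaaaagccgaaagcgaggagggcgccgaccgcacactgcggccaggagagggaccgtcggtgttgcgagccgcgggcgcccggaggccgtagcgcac
Abca1: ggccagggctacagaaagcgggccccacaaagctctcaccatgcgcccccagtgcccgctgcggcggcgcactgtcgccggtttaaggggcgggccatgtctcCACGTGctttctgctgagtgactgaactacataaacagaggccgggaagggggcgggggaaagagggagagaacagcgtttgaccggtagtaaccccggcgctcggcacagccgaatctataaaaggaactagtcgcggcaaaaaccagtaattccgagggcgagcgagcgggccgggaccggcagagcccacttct
CCAAT was found in 22 of the 37 member windows (59.5%), against 37.4% of all 32851 RefSeq windows of the same length. CACGTG was found in 8 (21.6%), against 7.15% of all windows, and GGGCGG, the GC box bound by Sp1, in 26 (70.3%), against 35.7%. TCACNCCAC was found in 1 (2.7%), against 1.24%. Each motif was counted separately, overlaps with another motif included, and the base composition of the windows was not matched. These are matches of letters and not sites of binding. Of the 6 members that rose and had a window, 4 held CCAAT, 2 held CACGTG and 6 held GGGCGG. Among all 28 members with a window, 21, 7 and 22 held them. These counts are per gene over all its windows, and cannot be set against the shares per window.

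Values are log2 signals as deposited, made with MAS5, and a difference is the mean of the mD1R arrays minus the mean of the PBS arrays. Changes were tested with limma over 27022 probe sets, and a gene is said to have risen or fallen only where its Benjamini-Hochberg adjusted p was under 0.05. Array medians lay between 6.07 and 6.42. The difference between the 3 prime and 5 prime actin control probe sets, a measure of RNA and labelling quality, was 0.37 to 0.46 in mD1R arrays and 0.20 to 0.27 in PBS arrays. For the Gapdh control the same difference was -0.41, -0.34 and -0.26 in mD1R arrays and -0.48, -0.38 and -0.33 in PBS arrays, so that these groups overlapped. The hybridisation controls split the arrays into 2 sets that cross the groups. BioB relative to the other controls lay between -3.09 and -2.99 (log2) in mD1R replicates 1 and 2 and PBS replicate 1, and between -5.56 and -5.50 in mD1R replicate 3 and PBS replicates 2 and 3. Markers of other cell types moved with treatment. Most mast cell and basophil markers were higher (10 of 12 tested passed, summed linear signal 67700 to 100237 in mD1R arrays and 14529 to 23232 in PBS arrays). Of the rest, Tpsb2 differed by 2.49 and Hdc by -1.34, and neither passed (adjusted p = 0.148 and 0.15). Of 14 monocyte and macrophage markers 5 passed as higher (sums 75644 to 139863 in mD1R arrays, 35067 to 39789 in PBS arrays). Cd163 alone among the 14 had a negative difference (-2.47, adjusted p = 0.0643). Of 10 neutrophil markers 1 passed as lower. The neutrophil sums were 33519, 104064 and 296060 in mD1R replicates 1, 2 and 3. In PBS replicates 1, 2 and 3 they were 243928, 284150 and 302629, so mD1R replicate 3 lay among the PBS arrays. Of 4 tested endothelial markers 1, Pecam1, passed as higher (sums over all 7 listed, 1975 to 4356 in mD1R arrays, 832 to 1596 in PBS arrays). The others listed lay below the filter and were not tested. Of these, Cdh5 (-2.65) and Emcn (-1.41) were lower in every mD1R array than in any PBS array, and Tek differed by 0.12. All 17 mitosis genes tested passed as lower (sums 15364 to 30075 in mD1R arrays, 68432 to 85153 in PBS arrays). No marker on these lists was at log2 0 in all 6 arrays. Among lineage antigens that the gate removes, 0 of 3 tested passed (Cd3e, Cd8a and Itgam, adjusted p between 0.152 and 0.656). Itgam was nevertheless far above the filter (5.27) in both groups. It was at 11.56, 11.94 and 11.72 in mD1R arrays and 11.66, 12.24 and 12.31 in PBS arrays. The purity of the sort was not tested. Of the genes of the gate's positive markers, Kit did not pass (adjusted p = 0.109). Ly6a, the gene of Sca-1, had no probe set with a single symbol and was not analysed here. Cd34, which the gate does not use, passed as higher. The part of these markers in the results below was not tested, and in sorted bulk RNA fewer cells of a type and less RNA per cell cannot be told apart.

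With mD1R, 11 of the 35 genes rose and 0 fell. They were the sterol enzymes Sqle, Lss and Dhcr7, the regulators Insig2 and Srebf1, the desaturases Scd1, Scd2, Fads1 and Fads2, and the efflux pumps Abca1 and Abcg1. The share that rose was 31.4%, against 6.13% of all 27022 probe sets tested and 8.49% of 12320 named genes represented in the same way. For falls the share was 0%, against 6.5% of probe sets and 7.09% of named genes. An unadjusted p under 0.05 in limma was found for 19 of the 35 in the higher direction and 0 in the lower. Of all 27022 probe sets, 8048 had one in either direction. The median difference over the 35 genes was 0.71 (log2), with a range from -0.49 for Scap to 2.58 for Abca1. Over all tested probe sets the median was 0.00, and over the named genes 0.09. All 3 mD1R arrays lay above all 3 PBS arrays in 18 of the 35 genes (51.4%), against 17.3% of probe sets and 22.1% of named genes. In 0 genes did all mD1R arrays lie below, against 18.6% of probe sets. Single arrays weighed on the calls. Without PBS replicate 3 no probe set on the array passed, although 5853 of 27022 had an unadjusted p under 0.05 in limma, counting both directions. Of the 35 members, 14 had one in the higher direction and 0 in the lower. Without PBS replicate 2, 5 of the 35 members rose, against 1.21% of all probe sets. Without mD1R replicate 2, 5 rose, against 1.26%, and without PBS replicate 1, 7 rose, against 2.69%. With the control-defined set of arrays as a block, 18 members rose, against 6.55% of all probe sets.

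**Figure D1:**
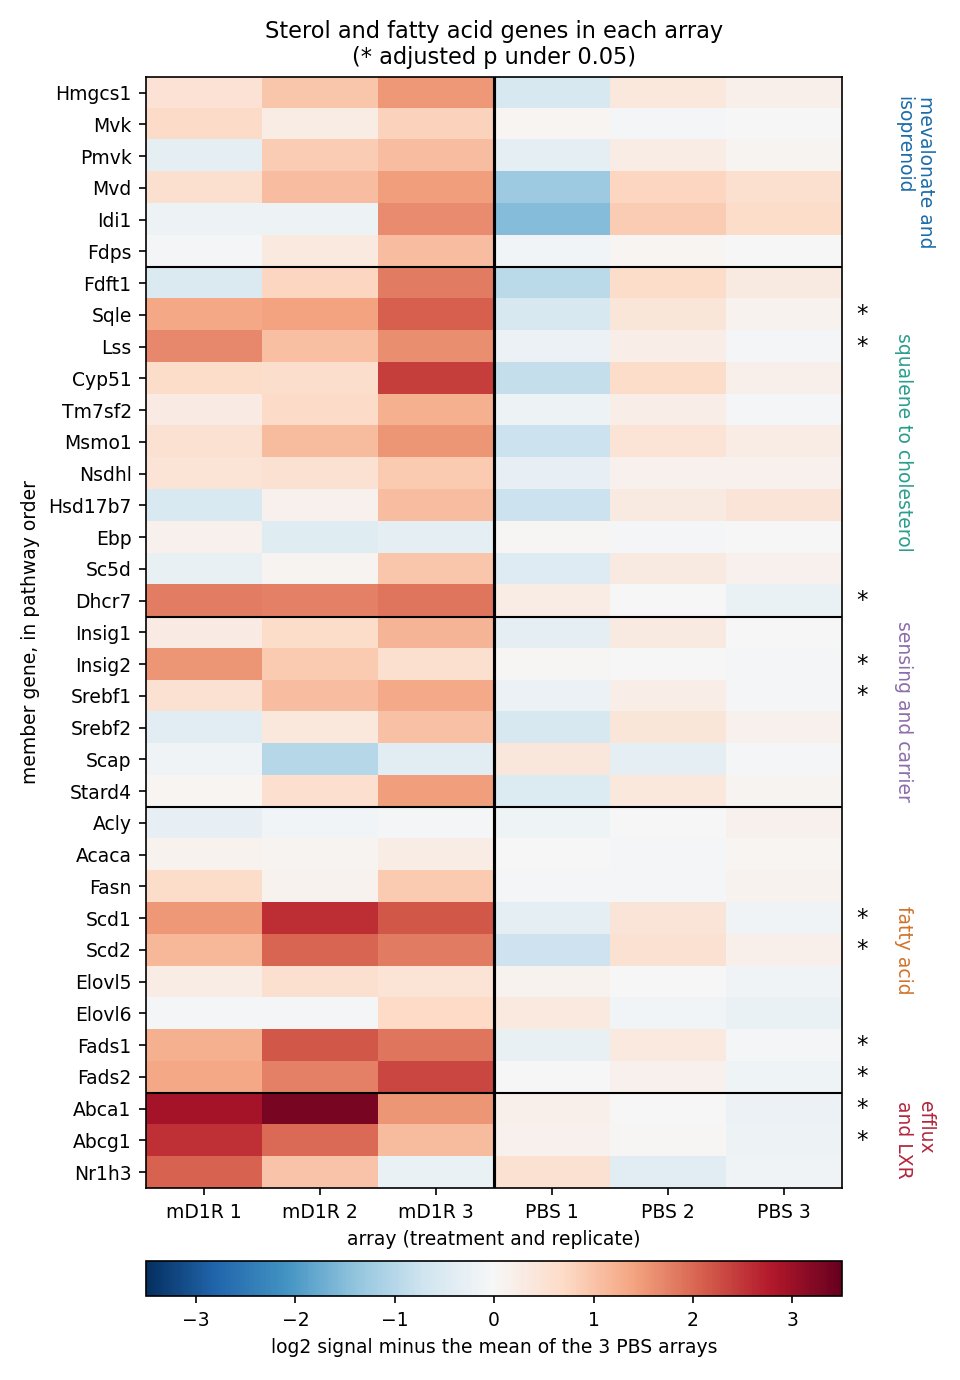
Log2 signal of each of the 35 members (rows, in pathway order, grouped by role) in each array (columns, mD1R replicates 1 to 3, then PBS replicates 1 to 3), as the difference from the mean of the 3 PBS arrays. Red is above that mean and blue below it, and stars mark the 11 genes that rose, among which Abca1 has the deepest red, in mD1R replicates 1 and 2.

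**Figure D2:**
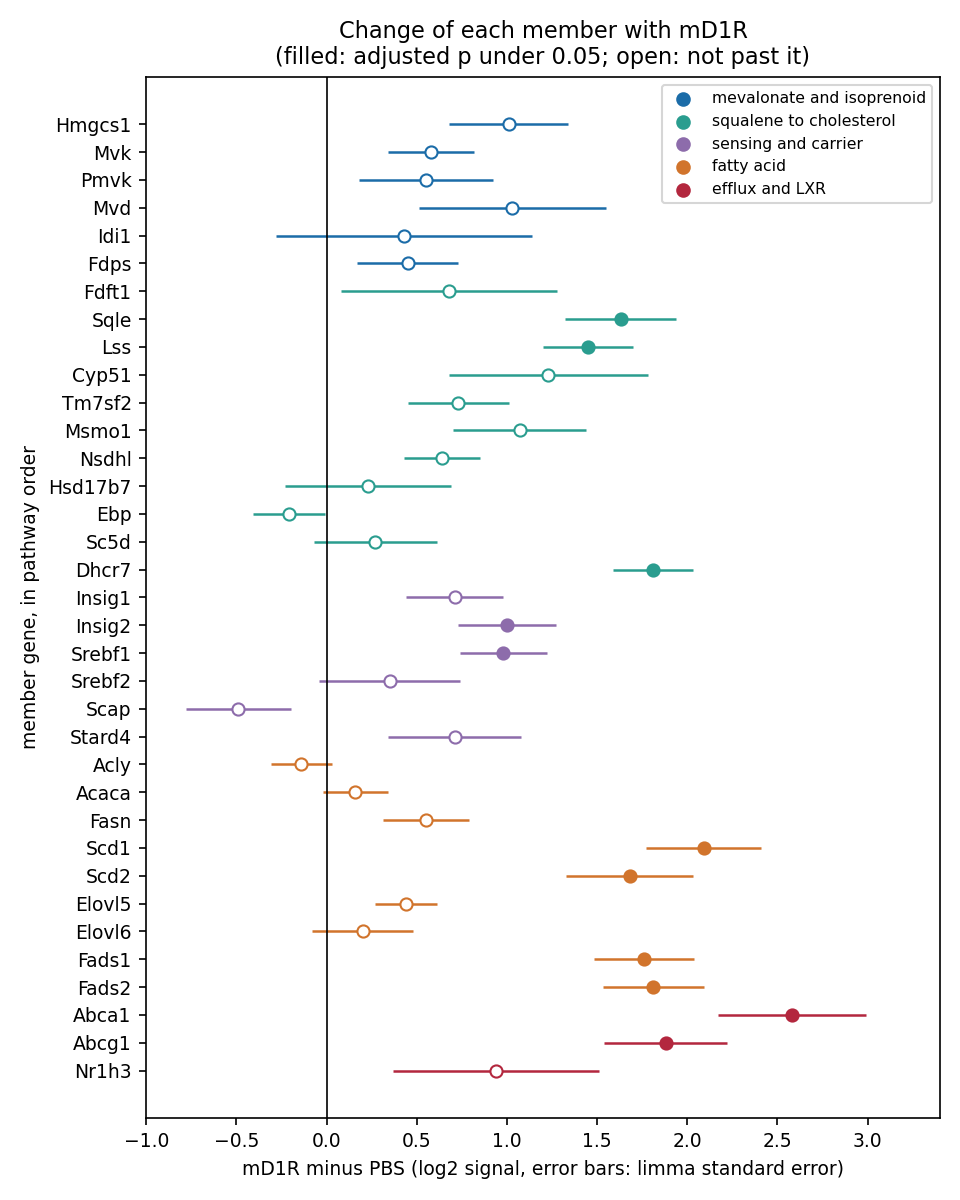
Difference between mD1R and PBS (log2 signal, horizontal axis) for each member, with limma's standard error as the bar and 3 arrays per group. Filled points are the 11 genes that rose and open points the 24 that did not pass, and 32 of the 35 points lie to the right of 0.

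Genes of the mevalonate arm, which turns acetyl-CoA into the isoprenoid units of sterols, were all higher on average, and 0 of the 6 tested passed. Their differences ran from 0.43 to 1.03 (log2), with a median of 0.56. Hmgcs1, the cytosolic HMG-CoA synthase, was at 12.38, 12.84 and 13.40 in the mD1R arrays, against 11.31, 12.25 and 12.05 in the PBS arrays. The groups did not overlap, and the 2.01-fold difference did not pass (log2 1.01 ± 0.33 SE, adjusted p = 0.0815). Its 4 other probe sets gave differences of 0.95, 0.98, 0.86 and 0.54, and none passed. Mvk, the kinase that phosphorylates mevalonate, was at 8.29, 7.90 and 8.44 with mD1R, against 7.71, 7.55 and 7.65 with PBS. Again the groups did not overlap and the difference of 0.58 ± 0.24 did not pass (adjusted p = 0.150), and a second probe set gave -0.11.

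Mvd, the decarboxylase that forms isopentenyl diphosphate, was at 9.62, 10.15 and 10.52 with mD1R, against 7.78, 9.80 and 9.61 with PBS. Idi1, the isomerase of the next step, was at 11.26, 11.24 and 13.08 with mD1R, against 9.90, 12.33 and 12.06 with PBS. In both genes the lowest array was PBS replicate 1, the highest mD1R replicate 3, and the groups overlapped. The difference was 1.03 ± 0.52 for Mvd and 0.43 ± 0.71 for Idi1, so that for Idi1 the standard error exceeded the difference. Fdps, the farnesyl diphosphate synthase, was at 11.45, 11.83 and 12.57 with mD1R, against 11.41, 11.57 and 11.51 with PBS. Replicates 1 and 2 of mD1R lay near the PBS arrays, and the difference of 0.45 ± 0.28 did not pass. The kinase gene Pmvk differed by 0.55 ± 0.37 and did not pass either. With the set of arrays as a block, 3 genes of this arm passed as higher, Hmgcs1 (1.28, adjusted p = 0.012), Mvd (1.46, adjusted p = 0.0291) and Idi1 (1.12, adjusted p = 0.0143).

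Of the 11 genes that make squalene and take it to cholesterol, 3 rose and 0 fell, and 10 were higher on average, with a median difference of 0.73. Dhcr7, the reductase of the last step to cholesterol, was at 9.23, 9.22 and 9.33 in the mD1R arrays, against 7.70, 7.43 and 7.22 in the PBS arrays. The mD1R arrays lay close together and above every PBS array, a 3.5-fold rise (log2 1.81 ± 0.22, adjusted p = 0.00968). Sqle, the epoxidase that adds oxygen to squalene and a rate-limiting step of the pathway, was at 10.88, 10.94 and 11.61 with mD1R, against 8.96, 9.95 and 9.64 with PBS. It rose 3.09-fold (1.63 ± 0.31, adjusted p = 0.0183). Lss, the cyclase that closes the rings of lanosterol, was at 9.67, 9.04 and 9.61 with mD1R, against 7.78, 8.22 and 7.96 with PBS. It rose 2.74-fold (1.45 ± 0.25, adjusted p = 0.0149). A second Lss probe set also rose (1.78, adjusted p = 0.0198), while one more gave 0.94 and did not pass. Apart from PBS replicate 3, the arrays that ended a call here when left out were mD1R replicate 2 for Sqle (1.73, adjusted p = 0.059) and PBS replicate 2 for Lss (1.57, adjusted p = 0.0513).

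Between these steps, the demethylating enzymes were higher without passing. Msmo1, the methyl oxidase, was at 11.62, 12.19 and 12.64 with mD1R, against 10.33, 11.57 and 11.36 with PBS (difference 1.07 ± 0.37, adjusted p = 0.0996). Its groups did not overlap, and a second probe set gave -0.84 without passing. Nsdhl, the decarboxylating dehydrogenase that acts with Msmo1, was at 10.26, 10.31 and 10.69 with mD1R, against 9.49, 9.94 and 9.92 with PBS (0.64 ± 0.21, adjusted p = 0.0886). Cyp51, the lanosterol demethylase, was at 10, 9.97 and 11.78 with mD1R, against 8.52, 10 and 9.53 with PBS. Here mD1R replicates 1 and 2 were level with PBS replicate 2, and the difference of 1.23 ± 0.55 did not pass (adjusted p = 0.176). Tm7sf2, a sterol reductase, differed by 0.73 ± 0.28 with no overlap of the groups (adjusted p = 0.129). With the set of arrays as a block, Cyp51 (1.74, adjusted p = 0.0102), Msmo1 (1.38, adjusted p = 0.0132) and Nsdhl (0.78, adjusted p = 0.0246) passed as higher.

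The other members of this arm did not pass. Fdft1, the squalene synthase, was at 10.40, 11.67 and 12.72 with mD1R, against 9.97, 11.54 and 11.23 with PBS. Its arrays ranged more widely inside the mD1R group than the groups differed (0.68 ± 0.60). Hsd17b7, a sterol ketoreductase, differed by 0.23 ± 0.46, and its 3 other probe sets by 0.13, -0.33 and -0.23. Sc5d, the lathosterol desaturase, differed by 0.27 ± 0.34. A second Sc5d probe set gave -0.15, and another, below the filter and not tested, lay lower in all mD1R arrays (3.71, 2.74 and 4.14) than in the PBS arrays (5.21, 5.88 and 5.99). Ebp, the sterol isomerase, was the one gene of the arm with a negative difference (-0.21 ± 0.20, adjusted p = 0.523), at 11.42, 10.85 and 10.94 with mD1R and 11.33, 11.20 and 11.30 with PBS.

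Among the sterol sensors, the SREBP factors and the sterol carrier, 2 of 6 genes rose and 0 fell. Insig2, which retains Scap in the endoplasmic reticulum, was at 10.34, 9.70 and 9.34 with mD1R, against 8.83, 8.79 and 8.76 with PBS. The PBS arrays lay close together and every mD1R array was above them, a 2.01-fold rise (1.0 ± 0.27, adjusted p = 0.0468). This call was close to the threshold. The other Insig2 probe sets gave 0.76 and 0.48 and did not pass, the call was absent when any single array other than mD1R replicate 3 was left out (adjusted p = 0.08 without mD1R replicate 1, 0.114 without mD1R replicate 2, and 0.104, 0.139 and 0.153 without PBS replicates 1, 2 and 3), and with the set of arrays as a block it was also absent (0.88, adjusted p = 0.0643). Insig1, its SREBP-induced relative, was at 10.51, 10.87 and 11.40 with mD1R, against 9.89, 10.53 and 10.23 with PBS. It overlapped by 1 array and did not pass (0.71 ± 0.27, adjusted p = 0.128). With the block it passed (0.91, adjusted p = 0.0272).

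Srebf1, the SREBP gene that favours fatty acid synthesis and is itself an LXR target, was at 10.87, 11.42 and 11.67 with mD1R, against 10.13, 10.58 and 10.30 with PBS. All mD1R arrays were higher, and it rose 1.98-fold (0.98 ± 0.24, adjusted p = 0.0374). Its call was absent without mD1R replicate 2 (0.93, adjusted p = 0.121), PBS replicate 1 (0.88, 0.106) or PBS replicate 2 (1.10, 0.0857). It was also absent with arrays centred on their medians (0.99, adjusted p = 0.0542), as was that of Insig2 (1.01, adjusted p = 0.0526). Srebf2, the SREBP gene that favours cholesterol synthesis, was at 9.52, 10.27 and 10.91 with mD1R, against 9.33, 10.31 and 10.03 with PBS. The groups overlapped (0.35 ± 0.39), and a second probe set gave 0.01. Whether Srebf1 and Srebf2 differed in their response was not tested. Scap had the most negative difference of the 35 genes (-0.49 ± 0.29, adjusted p = 0.295), at 10.01, 9.13 and 9.73 with mD1R and 10.52, 9.79 and 10.04 with PBS. Stard4, a soluble cholesterol carrier, was at 9.65, 10.19 and 11.04 with mD1R, against 9.11, 9.95 and 9.69 with PBS (0.71 ± 0.37, adjusted p = 0.245). Its other probe sets gave 0.52 and -0.06, and with the block the brightest one passed (1.01, adjusted p = 0.0302).

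In fatty acid metabolism, 4 of 9 genes rose, 0 fell, and all 4 encode desaturases. Scd1, the stearoyl-CoA desaturase that makes monounsaturated fatty acids, was at 10.60, 11.67 and 11.25 with mD1R, against 8.75, 9.54 and 8.96 with PBS. Every mD1R array was above every PBS array, and the rise was 4.26-fold (2.09 ± 0.32, adjusted p = 0.0118). Scd2, its close relative, was at 13.66, 14.52 and 14.31 with mD1R, against 11.76, 13.03 and 12.67 with PBS, a 3.2-fold rise (1.68 ± 0.35, adjusted p = 0.0241). The other tested probe sets of both genes rose too, by 1.72 for Scd1 and by 1.60 and 1.13 for Scd2. The Scd2 call was absent without mD1R replicate 2 (1.5, adjusted p = 0.0894), PBS replicate 1 (1.32, 0.0554) or PBS replicate 2 (1.95, 0.0502).

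Fads2, the desaturase that opens the route to polyunsaturated fatty acids, was at 9.02, 9.43 and 10 with mD1R, against 7.68, 7.81 and 7.52 with PBS. It rose 3.5-fold (1.81 ± 0.28, adjusted p = 0.0121). Its other probe sets rose as well, by 1.15 and 2.16. Fads1, the desaturase of the later step of that route, was at 10.07, 11.01 and 10.71 with mD1R, against 8.58, 9.17 and 8.75 with PBS, a 3.4-fold rise (1.76 ± 0.28, adjusted p = 0.0129). A second Fads1 probe set gave 0.22 and did not pass, and without mD1R replicate 2 the brightest one missed the threshold (1.56, adjusted p = 0.0504). In none of the 4 desaturase genes did the groups overlap.

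None of the 5 members that supply carbon for the fatty acid chain, build it or elongate it passed. Acly, which supplies cytosolic acetyl-CoA from citrate, was at 12.20, 12.41 and 12.46 with mD1R, against 12.36, 12.51 and 12.64 with PBS (-0.14 ± 0.17, adjusted p = 0.611). Its 3 other tested probe sets gave -0.24, -0.21 and 0.38. Acaca, the carboxylase that commits carbon to fatty acids, was at 9.05, 9.04 and 9.21 with mD1R, against 8.93, 8.90 and 9.0 with PBS. The groups did not overlap, by a narrow margin (0.16 ± 0.18, adjusted p = 0.607). Fasn, the fatty acid synthase, was at 9.90, 9.36 and 10.16 with mD1R, against 9.21, 9.17 and 9.38 with PBS (0.55 ± 0.24, adjusted p = 0.166). The elongase genes Elovl5 (0.44 ± 0.17, adjusted p = 0.124) and Elovl6 (0.20 ± 0.28, adjusted p = 0.675) did not pass. A difference between the desaturase and the synthase genes among the members was seen in the values and was not tested.

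**Figure D3:**
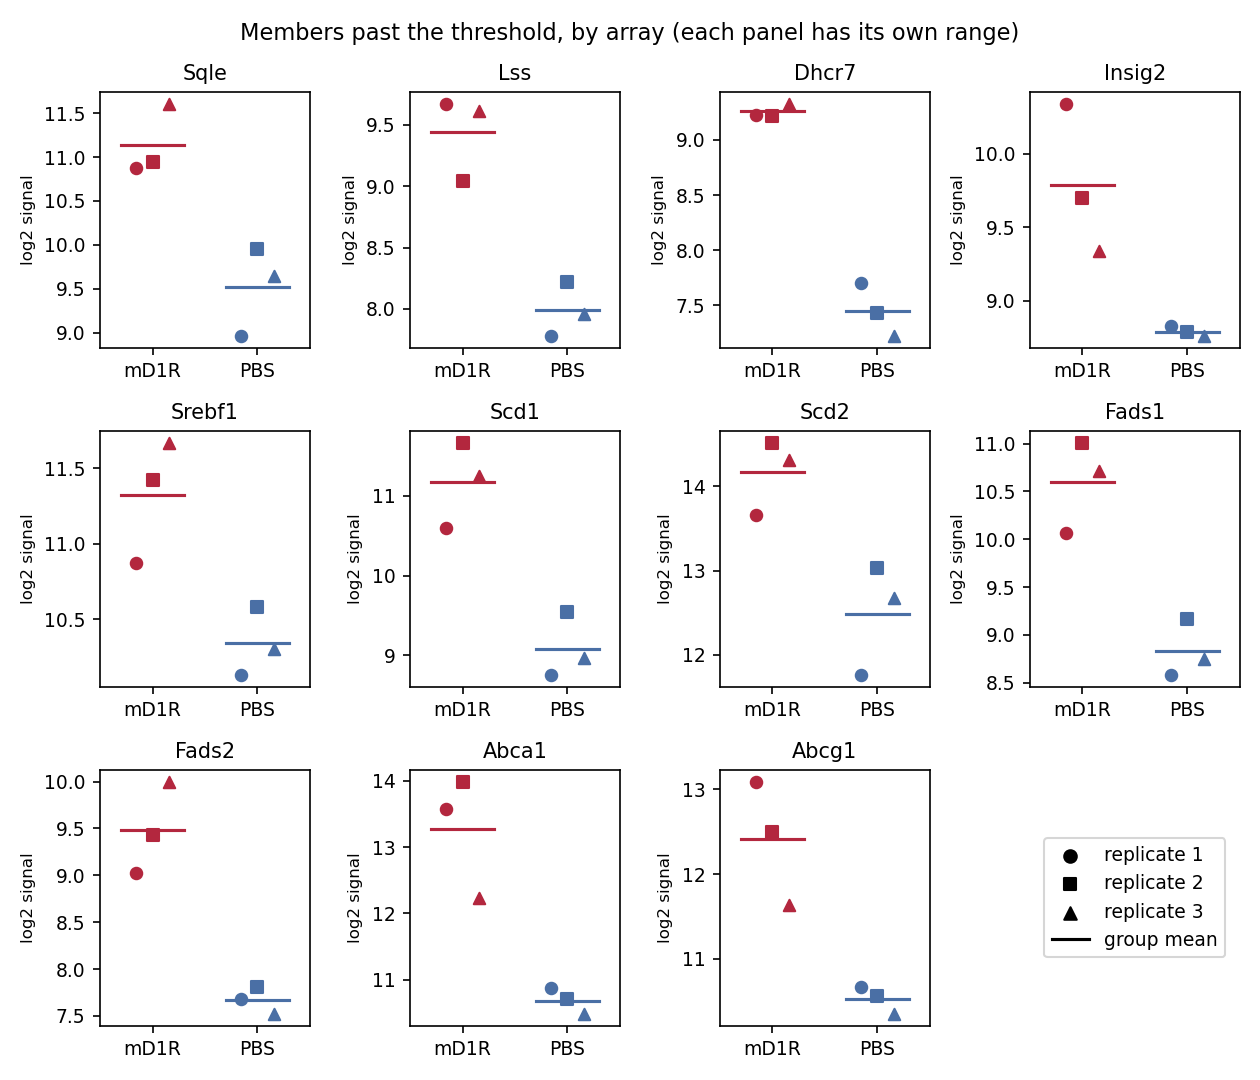
Log2 signal (vertical axis, with its own range in each panel) of the 11 members that rose, in the 3 mD1R arrays and the 3 PBS arrays. Symbols give the replicate and horizontal lines the group means, and in every panel all mD1R arrays lie above all PBS arrays, by the widest margin for Dhcr7, Abca1 and Fads2.

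Both efflux pumps rose. Abca1, which loads cholesterol onto lipid-poor apolipoprotein A-I, was at 13.58, 13.99 and 12.23 with mD1R, against 10.87, 10.70 and 10.48 with PBS. It had the largest difference of the 35 genes, a 5.99-fold rise (2.58 ± 0.41, adjusted p = 0.0127). Abcg1, which passes cholesterol to high-density lipoprotein, was at 13.09, 12.50 and 11.63 with mD1R, against 10.67, 10.56 and 10.35 with PBS, a 3.69-fold rise (1.88 ± 0.34, adjusted p = 0.0165). In both genes mD1R replicate 3 was the lowest of the mD1R arrays and still above every PBS array. A second Abcg1 probe set rose by 1.39, and 2 further Abca1 probe sets gave 1.33 and 1.23 and did not pass. The Abca1 call was absent without PBS replicate 2 (2.59, adjusted p = 0.0513). The Abcg1 call was absent without mD1R replicate 2 (1.84, 0.0657), PBS replicate 1 (1.95, 0.0508) or PBS replicate 2 (1.90, 0.0597).

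Nr1h3, which encodes the LXR-alpha receptor that activates both pump genes, was at 8.62, 7.54 and 6.31 with mD1R, against 7.07, 6.15 and 6.43 with PBS. Replicate 3 of mD1R lay among the PBS arrays, and the difference of 0.94 ± 0.57 did not pass (adjusted p = 0.311). Without that array it was 1.53 and passed (adjusted p = 0.0452). Macrophages express all 3 of these genes. The monocyte and macrophage markers given above had summed signals of 115121, 139863 and 75644 in mD1R replicates 1, 2 and 3, against 35067, 39789 and 38112 in PBS replicates 1, 2 and 3. As in the 3 genes, mD1R replicate 3 had the lowest value of the mD1R arrays. PBS replicate 1, the highest PBS array in the 3 genes, had the lowest marker sum. A linear sum gives most weight to the brightest markers, and single markers were split on this order. PBS replicate 1 was the lowest PBS array for Cd14 (11.51, against 13.29 and 13.33). It was the highest for others, such as Mrc1 (10.96, against 8.35 and 8.56) and C1qa (11.15, against 8.69 and 8.99). The part of the markers in the rise of the pumps was not tested.

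The sterol enzymes also varied from array to array inside each group, and did so together. Among the 17 tested genes from Hmgcs1 to Dhcr7, mD1R replicate 3 was the highest mD1R array in 15, against 36.9% of all probe sets, and PBS replicate 1 was the lowest PBS array in 14, against 31.4%. Both held in 13 of the 17, against 14.9% of all probe sets. The median of mD1R replicate 3 minus the mean of replicates 1 and 2 was 0.76 over these genes, against 0.04 over all probe sets. The median of PBS replicates 2 and 3 minus replicate 1 was 0.69, against -0.14 over all probe sets. These values show how the arrays ranked, and neighbouring genes of a shared pathway in the same RNA are not independent of each other. Measured against the mean of the PBS arrays, the median sterol enzyme was 1.46 higher in mD1R replicate 3 and 0.48 higher in replicates 1 and 2.

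The efflux genes ran the other way. In Abca1, Abcg1 and Nr1h3, mD1R replicate 3 was the lowest mD1R array and PBS replicate 1 the highest PBS array, with a median of -1.55 between mD1R replicate 3 and the mean of replicates 1 and 2. Among the 9 fatty acid genes the corresponding median was 0.17. No label gives replicate 3 of mD1R or replicate 1 of PBS a different handling. The hybridisation controls, however, split the arrays in the same way, with mD1R replicate 3 and PBS replicates 2 and 3 together. The sterol enzymes were thus higher in that set inside both groups (medians 0.76 and 0.69). The neutrophil marker sum of mD1R replicate 3 (296060) also differed from those of mD1R replicates 1 and 2 (33519 and 104064). A cause of the order was not tested.

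**Figure D4:**
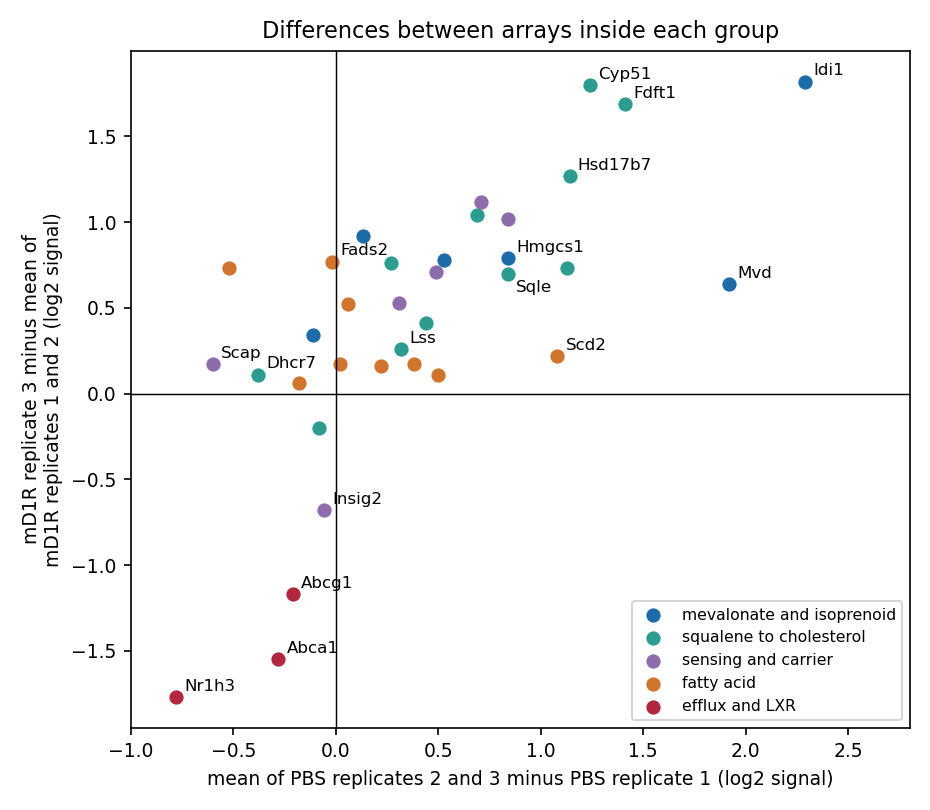
Differences between arrays of the same group for the 35 members, as log2 signal. The horizontal axis is the mean of PBS replicates 2 and 3 minus PBS replicate 1, the vertical axis mD1R replicate 3 minus the mean of mD1R replicates 1 and 2, and colours give the role. Most sterol enzymes lie in the upper right, with Idi1 and Cyp51 at the top, and the 3 efflux and LXR genes lie at the lower left.

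Since the sets of arrays defined by the hybridisation controls place mD1R replicates 1 and 2 with PBS replicate 1, and mD1R replicate 3 with PBS replicates 2 and 3, the treatment was also compared inside each set, where 1 array stands alone on 1 side. In the first set the median difference over the 35 genes was 1.01, and in the second 1.02. The 2 differences had the same sign in 34 of the 35 genes, Elovl6 being the exception (-0.38 and 0.86), against 68.7% of all probe sets. Over the 17 sterol enzymes the medians were 1.06 and 1.03. Cyp51 was higher with mD1R by 1.46 and 2.02, Idi1 by 1.35 and 0.88, Dhcr7 by 1.52 and 2.01, Scd1 by 2.39 and 2.0, and Abca1 by 2.91 and 1.64. The values of the 2 sets were 2.10 and 0.82 for Mvd, 1.01 and 0.02 for Nr1h3, and -0.95 and -0.18 for Scap. With the set as a block, under which 18 members rose, the calls gained were Hmgcs1, Mvd, Idi1, Cyp51, Msmo1, Nsdhl, Insig1 and Stard4, and the call lost was that of Insig2. Whether the sets reflect processing or something else was not tested.

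**Figure D5:**
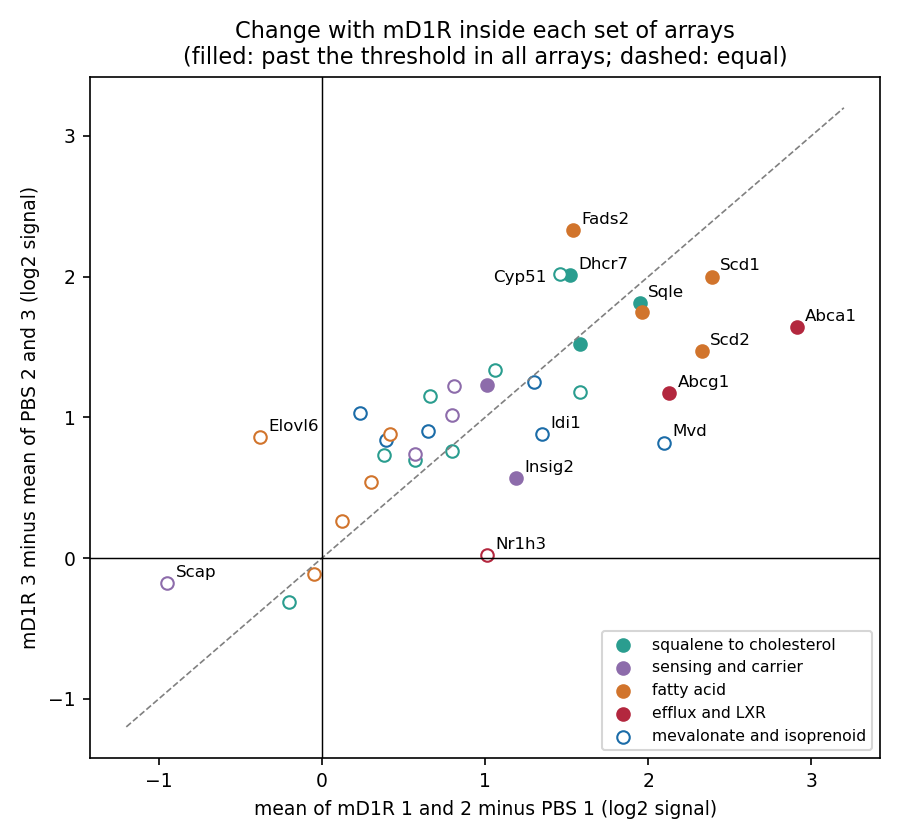
Change with mD1R (log2 signal) inside each control-defined set of arrays, for the 35 members. The horizontal axis is the mean of mD1R replicates 1 and 2 minus PBS replicate 1, the vertical axis mD1R replicate 3 minus the mean of PBS replicates 2 and 3, filled points rose in the comparison of all arrays, and the dashed line marks equal values. All 11 filled points are above 0 on both axes, and Abca1 lies farthest to the right, at 2.91.

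Other genes of sterol and fatty acid metabolism were taken from a list of 55. Of these, 41 were tested, 5 lay below the filter, and 9 had no probe set with a single symbol and were not analysed here. With mD1R 15 of the 41 rose (36.6%, against 6.13% of all probe sets and 8.49% of named genes) and 2 fell (4.88%, against 6.5% and 7.09%). Their median difference was 0.51. Without PBS replicate 2, 1 of the 41 rose, against 1.21% of all probe sets. Without mD1R replicate 2, 3 rose, against 1.26%, and without PBS replicate 1, 5 rose, against 2.69%. Without PBS replicate 3, 0 rose, against 0% of all probe sets. With no variance trend 8 rose, against 3.99%.

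The 8 with the smallest p included 6 risers. Acsl4, which attaches coenzyme A to arachidonic acid, was at 11.65, 11.94 and 11.54 with mD1R, against 10.54, 10.54 and 10.46 with PBS (1.2 ± 0.17, adjusted p = 0.0113). Lipa, the lysosomal acid lipase that frees cholesterol from its esters, was at 12.51, 12.84 and 11.71 with mD1R, against 10.54, 10.63 and 10.43 with PBS (1.82 ± 0.28, adjusted p = 0.0121). Ch25h, which makes an oxysterol, was at 9.44, 8.95 and 7.99 with mD1R, against 7.05, 6.86 and 6.67 with PBS (1.93 ± 0.37, adjusted p = 0.0194). Like the pumps, Lipa and Ch25h had mD1R replicate 3 as the lowest mD1R array, with no overlap with PBS. Hsd3b7 of bile acid synthesis rose by 1.37 ± 0.21, Lpin1, a phosphatidate phosphatase, by 1.35 ± 0.27 and Hacd3, a dehydratase of fatty acid elongation, by 1.15 ± 0.22. The 2 genes that fell act in the same elongation cycle. Hacd2, another dehydratase, was at 10.90, 10.64 and 11.16 with mD1R, against 12.04, 12.11 and 12.16 with PBS (-1.2 ± 0.18, adjusted p = 0.0118), and Tecr, the reductase that ends the cycle, was at 11.17, 11.22 and 11.65 with mD1R, against 12.36, 12.61 and 12.72 with PBS (-1.22 ± 0.20, adjusted p = 0.0132). Hacd2 and Hacd3 thus passed in opposite directions.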

How the data were processed

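The authors deposited log2 signals for 45101 probe sets, 64 of them controls. Per the submitters' processing notes they were made with MAS5 (version not given in the sources used here). Each array had a 2% trimmed mean of 500 on the linear scale, so arrays had been scaled one by one, and 239 to 422 values per array were listed as log2 0. MAS5 subtracts mismatch signal, which makes low values noisy. Detection calls were not used.

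The test was limma's (version 3.58.1, under R 4.3.3; eBayes with a variance trend, two-sided, no covariate). The filter removed probe sets whose mean was below the 40th percentile (5.27) and retained 27022, and p-values were adjusted over all of them (Benjamini-Hochberg, threshold 0.05). The number of arrays limits the precision: the median standard error of a log2 difference was 0.31. The fit was tested on simulated data. Members, lists and tests were chosen with earlier results of these data known. All members are accounted for. Other pathway genes were named if past the threshold, at most 8 by smallest p. Probe sets of a gene were not averaged. Levels of different probe sets were not compared. Alternatives covered scaling, a pseudocount of 16, the filter, the variance model, array weights, blocks, probe set choice, the threshold and each array left out. No array pair in a group shared identical nonzero values.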

Additional observations from a re-analysis of the deposited data

How the results depend on the processing

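The number of arrays sets the main limit. Leaving out 1 array at a time, the count of members that rose ran from 0 to 12 and of members that fell was 0 throughout, the median member difference ran from 0.48 to 0.95, other pathway genes that rose from 0 to 17 and that fell from 0 to 3, and probe sets that passed from 0 to 5554 of 27022 (3413 with all arrays). Without PBS replicate 3, where none passed in limma, 5853 probe sets had an unadjusted p under 0.05, with 14 members and 18 other pathway genes higher and 0 and 3 lower. Dhcr7, Scd1 and Fads2 kept their calls in every setting except that one. The probe set count was 2213 with no variance trend (8 other pathway genes rising), 6508 with array weights and 5737 at an adjusted p of 0.10. Members that rose numbered 18 with the control-defined set as a block and between 9 and 14 in all other settings that used all arrays. Differences that changed sign belonged to genes that had not passed: Idi1 (-0.33) and Hsd17b7 (-0.07) with array weights, Msmo1 (-0.84) with probe sets ending _s_at, _x_at or _a_at left out, and Hsd17b7 (-0.05) as a gene mean. With arrays left out in turn Idi1 ran from -0.33 to 0.88, Hsd17b7 from -0.19 to 0.62, Sc5d from -0.08 to 0.53 and Elovl6 from -0.04 to 0.37. The cause of these shifts was not tested. The labels do not say whether the replicate numbers pair the arrays. Deviations from the group means correlated at 0.313, 0.028 and 0.132 for same-numbered arrays, and not every array correlated best with its own number. These values cannot decide the pairing, because each mean rests on 3 arrays and the control-defined sets cut across the numbers. With the replicate block 4619 probe sets passed and 13 members rose, Hmgcs1 and Msmo1 being added.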

Other observations

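Among the 15 other pathway genes that rose, those outside the 8 named above were added here after their values were seen. Npc1 and Npc2, which export cholesterol from the lysosome, rose by 1.93 ± 0.48 (adjusted p = 0.0374 in limma) and 0.98 ± 0.20 (adjusted p = 0.0222). Npc1 was at 12.60, 11.33 and 10.55 in mD1R arrays, against 9.99, 9.45 and 9.25 in PBS arrays. Vldlr, a lipoprotein receptor, was at 7.49, 9.61 and 9.78 in mD1R arrays, against 6.89, 6.95 and 6.63 in PBS arrays (2.14 ± 0.57, adjusted p = 0.0459). Cd36, a fatty acid and lipoprotein scavenger receptor that macrophages express, was at 13.58, 11.33 and 10.76 in mD1R arrays, against 9.96, 8.93 and 8.81 in PBS arrays (2.66 ± 0.68, adjusted p = 0.0413). Mylip and Lpcat3 rose by 1.07 ± 0.26 (adjusted p = 0.0369) and 1.0 ± 0.20 (adjusted p = 0.0217). Slc25a1 and Acsl3 rose by 1.01 ± 0.24 (adjusted p = 0.0339) and 1.16 ± 0.30 (adjusted p = 0.0436). Mbtps2, the protease that makes the second cut of the SREBP factors, rose by 0.99 ± 0.22 (adjusted p = 0.0263), and Mbtps1, the protease of the first cut, differed by 0.03 ± 0.17 and did not pass. All groups of these genes that rose were free of overlap.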
